A study of Mus musculus with 8 samples.

Results

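Forkhead and SOX transcription factors were compared between sorted cells of 3 mouse organs that the labels call smooth muscle. The members were the protein-coding rows of the deposited expression table whose symbol is Fox followed by a letter from a to s and a number, or Sox followed by a number. Foxf1, Foxf2, Foxl1, Foxj1, Foxd3 and Sox10 were left out by the rule. This gave 42 genes, 26 forkhead and 16 SOX, of the 21649 genes in the table, and the rule uses symbols and no measured value. RNA was sequenced from cells sorted by fluorescence and labelled as non-vascular smooth muscle, with 2 libraries from lung, 3 from intestine and 3 from bladder. The labels give the same genotype for all 8 libraries, Cspg4-Dre, Acta2-CreERT and R26-GFP. Dre is made under the mural cell gene Cspg4 and a tamoxifen-activated Cre under the smooth muscle actin gene Acta2, both recombinases, and GFP is read from the Rosa26 locus. Every group also received tamoxifen into the peritoneum, at 0.75 mg for every 10 g of body weight over 3 days. No library is from untreated or unsorted cells, and the labels give no age and do not say whether the libraries of an organ are separate mice. The p-values therefore refer to the spread from library to library and no further, and that spread may be technical.

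Forkhead proteins bind DNA through a winged-helix domain, and some of them, FOXA above all, can bind sites in closed chromatin and so precede other factors there. SOX proteins carry an HMG box that binds the minor groove and bends DNA, and they usually act together with a partner factor bound beside them. Members of both families set cell identity in organ development, and in the wall of hollow organs they are known from the epithelium (FOXA, SOX9), the endothelium (SOXF, FOXC), mural cells (FOXS1, FOXC), enteric glia (SOXE) and dividing cells (FOXM1), while FOXO, FOXK, FOXN and FOXJ genes are active in most tissues.

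Core promoter sequence was read for 28 of the 42 members, as the 250 nt before each start in the RefSeq promoter table of build GRCm38.p6. Those without an entry were Foxc2, Foxh1, Foxk1, Foxm1, Foxn2, Foxo4, Foxo6, Foxp2, Foxq1, Foxs1, Sox7, Sox9, Sox17 and Sox18. The windows of 4 members are printed because their genes differed between organs in the ways described below. Foxa1 and Foxa3 were highest in intestine, Foxc1 was lowest in bladder, and Sox12 was highest in lung. Each reads 5′ to 3′ on the gene's strand and ends at the base before the start. Capitals mark matches, on either strand, to the SOX core ACAAAG, the forkhead motif GTAAACA, the TATA box TATAAA, the CCAAT box and the GC box GGGCGGG.
Foxa1 (chr12:57546112-57546361, minus strand): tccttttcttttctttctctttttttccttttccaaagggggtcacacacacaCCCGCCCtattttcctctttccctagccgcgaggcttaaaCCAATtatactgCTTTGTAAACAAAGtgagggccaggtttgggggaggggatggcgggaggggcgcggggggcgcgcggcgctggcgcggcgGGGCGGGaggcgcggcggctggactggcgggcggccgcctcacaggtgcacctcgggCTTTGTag
Foxa3 (chr7:19023540-19023789, minus strand): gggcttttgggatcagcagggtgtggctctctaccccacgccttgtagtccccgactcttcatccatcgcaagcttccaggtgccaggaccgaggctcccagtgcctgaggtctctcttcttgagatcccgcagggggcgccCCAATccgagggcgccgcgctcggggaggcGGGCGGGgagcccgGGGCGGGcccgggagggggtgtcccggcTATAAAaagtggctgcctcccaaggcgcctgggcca
Foxc1 (chr13:31806396-31806645, plus strand): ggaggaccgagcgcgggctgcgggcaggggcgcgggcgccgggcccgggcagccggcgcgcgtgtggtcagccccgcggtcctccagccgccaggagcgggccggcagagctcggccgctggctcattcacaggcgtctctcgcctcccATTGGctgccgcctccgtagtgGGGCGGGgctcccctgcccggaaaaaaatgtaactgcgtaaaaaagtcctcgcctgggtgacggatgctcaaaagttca
Sox12 (chr2:152398047-152398296, minus strand): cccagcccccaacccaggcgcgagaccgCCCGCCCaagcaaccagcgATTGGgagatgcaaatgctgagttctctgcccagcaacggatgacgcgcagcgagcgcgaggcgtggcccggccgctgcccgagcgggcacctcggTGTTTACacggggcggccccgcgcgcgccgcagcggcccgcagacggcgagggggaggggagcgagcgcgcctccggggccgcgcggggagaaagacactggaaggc

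In the Foxa1 window the forkhead motif began at position -141, counted from -1 at the base before the start, and overlapped SOX core matches at -145 and -137. A further SOX core match began at -8. The Sox12 window held a forkhead match at -107 and no SOX core match. Among the 28 members with a window, only Foxa1 and Sox12 had the forkhead motif, against 3.17% of all 32851 windows in the table. The SOX core stood in windows of 7 of the 28 members, Foxa1, Foxa2, Foxo3, Foxp1, Foxp3, Sox2 and Sox6, and in 16.5% of all windows. A gene can have several windows, so these counts per gene are not the same measure as the share of windows. Of the 4 printed windows, the TATA box stood only in that of Foxa3, at -36, and 12.4% of all windows have it. All 4 printed windows held a CCAAT box and a GC box. Over the 28 members, 16 had a CCAAT box and 19 a GC box, against 33.9% and 23.4% of all windows. The member windows had a median GC content of 61.4%, against 52.4% for all windows. The serum response factor CArG box, in 1.47% of windows, and the AP-1 motif TGAGTCA, in 4.46%, had no match in a window of the 28. These are matches of letters, and binding was not measured.

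Values are normalized read counts as the authors deposited them. The libraries held 9.72 to 13.63 M reads, reconstructed from the spacing of the values, with the fewest in bladder, and 19206 to 20357 genes above 0. Log2 values of libraries of the same organ correlated at 0.967 to 0.975 across genes. Reads of 2 libraries were also compared by a chi-square per gene, larger where they differ more. It was 26.7 within lung, 6 to 8.34 within intestine and 5.01 to 6.63 within bladder. The fit shares 1 estimate of the spread over the organs, so SEs and p-values of differences that involve lung may be too small. All 10 smooth muscle markers (Acta2, Myh11, Des and others) were present, summing to 3365 to 3571 ppm (1 ppm is 0.0001% of the summed values of a library) in lung, 3114 to 3353 ppm in intestine and 1739 to 2119 ppm in bladder. A list of 10 fibroblast markers summed to 3403 to 3870, 4322 to 4613 and 5831 to 6441 ppm in the same order, and 10 vascular smooth muscle and pericyte markers to 2487 to 2796, 2581 to 2695 and 1103 to 1149 ppm, although the cells are labelled non-vascular. The scaling of the libraries moved the calls over all genes. Undoing the deposited scaling restores the depth difference between organs, so an upward shift in lung and intestine against bladder is built into that setting. With the deposited scaling undone, the median log2 difference of all genes moved to 0.48 for lung minus bladder and 0.45 for intestine minus bladder, against 0.00 and 0.06 as deposited. The calls then split into 7959 higher and 1897 lower in lung than in bladder (3466 and 3952 as deposited), and 8317 higher and 1930 lower in intestine than in bladder (5185 and 4210 as deposited). Between lung and intestine, 3693 were higher and 3553 lower in lung with the scaling undone, 4822 and 3580 with quantile normalization, and 2882 and 4275 as deposited. Scaled to equal totals, 4562 were higher and 3234 lower in lung than in bladder, and with quantile normalization 4258 were higher and 5547 lower in intestine than in bladder.

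Most of the factors differed between the organs, and 13 of them were lower in bladder than in both other organs. Of the 42 members, 37 passed the filter on low values (2 or more libraries with a value of 10 or above), and 29 of these (78.4%) differed over the 3 organs by limma's F test at a Benjamini-Hochberg adjusted p under 0.05. Of all 18097 genes tested, 62.9% did. All 15 SOX genes tested and 14 of the 22 forkhead genes passed this test. Foxa3, Sox2, Sox15 and Sox21 met the filter on low values only through the organ where they were highest, which favours a call for them. Between lung and bladder, 23 of the 37 (62.2%) were called, 18 higher and 5 lower in lung. Over all genes tested, 41% were called in this pair, 19.2% higher and 21.8% lower. Without lung library 2, the 18 fell to 12. Between intestine and bladder, 24 of the 37 (64.9%) were called, 18 higher and 6 lower in intestine, against 51.9% of all genes, 28.7% higher and 23.3% lower. With quantile normalization, 13 were higher and 8 lower in intestine, and with the deposited scaling undone 25 and 3. Between lung and intestine, 22 of the 37 (59.5%) were called, 11 higher and 11 lower in lung, against 39.5% of all genes, 15.9% higher and 23.6% lower. The 11 lower fell to 7 without intestine library 3. The median log2 difference of the 37 was 0.63 between lung and bladder, 0.57 between intestine and bladder, and -0.25 between lung and intestine, against 0.00, 0.06 and -0.04 for all genes. Sox15 was under the floor of 3 reads per library in lung and intestine, and with no difference entered for it the last median was -0.08. The comparisons share libraries and are not independent of each other.

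**Figure D1:**
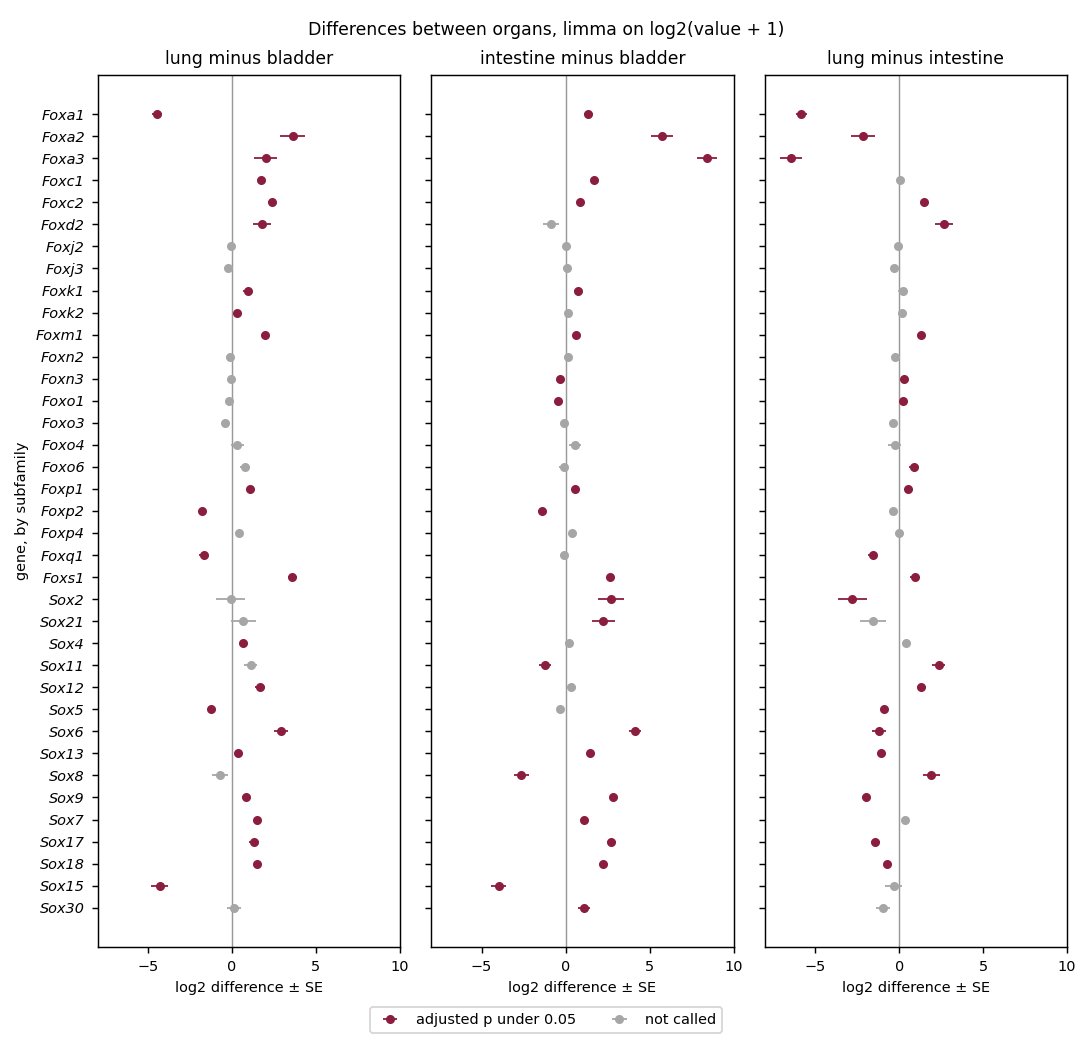
Log2 difference of each tested forkhead and SOX gene (rows, by subfamily) for lung minus bladder, intestine minus bladder and lung minus intestine, with bars of 1 SE; dark red points have a limma adjusted p under 0.05 and grey points do not. The farthest points are Foxa3 at 8.43 between intestine and bladder and -6.43 between lung and intestine, while the FOXJ, FOXK, FOXN and FOXO rows stay within 1 of 0.

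Split by organ, 5 of the 37 were enriched in lung (higher than in both other organs), Foxc2, Foxm1, Foxp1, Foxs1 and Sox12. This compares with 5.07% of all genes tested, and the count was 3 without lung library 2 and 3 without intestine library 2. Enriched in intestine were 7, Foxa1, Foxa3, Sox2, Sox9, Sox13, Sox17 and Sox18, against 13.8% of all genes. Only Foxp2 and Sox15 were enriched in bladder, against 12.1% of all genes. Foxa3, Sox2 and Sox15 had met the filter only through the organ in which they were enriched. The reverse pattern, lower than in both other organs, was called in bladder for those 13 members, Foxa2, Foxc1, Foxc2, Foxk1, Foxm1, Foxp1, Foxs1, Sox6, Sox7, Sox9, Sox13, Sox17 and Sox18 (10.1% of all genes), for Foxn3, Sox8 and Sox11 in intestine (6.85%) and for Foxa1, Foxq1 and Sox5 in lung (7.65%). The counts of lowest members, unlike those of enriched members, were not recomputed under the alternatives. Of the 13, Foxc2, Foxk1, Foxm1, Sox9 and Sox13 each lost a call against bladder in at least 1 alternative. As deposited values, the 42 members summed to 2153 to 2252 ppm of a lung library, 2296 to 2414 ppm of an intestine library and 1381 to 1550 ppm of a bladder library. The forkhead genes made up 1505 to 1541 ppm in lung, 1364 to 1418 ppm in intestine and 1029 to 1096 ppm in bladder. The SOX genes made up 612 to 747 ppm in lung, 933 to 997 ppm in intestine and 352 to 454 ppm in bladder. The SOX sum was thus highest in intestine and the forkhead sum in lung, and bladder was lowest for both without overlap. These are sorted cells in bulk, where fewer cells of a type and less RNA per cell cannot be told apart.

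**Figure D2:**
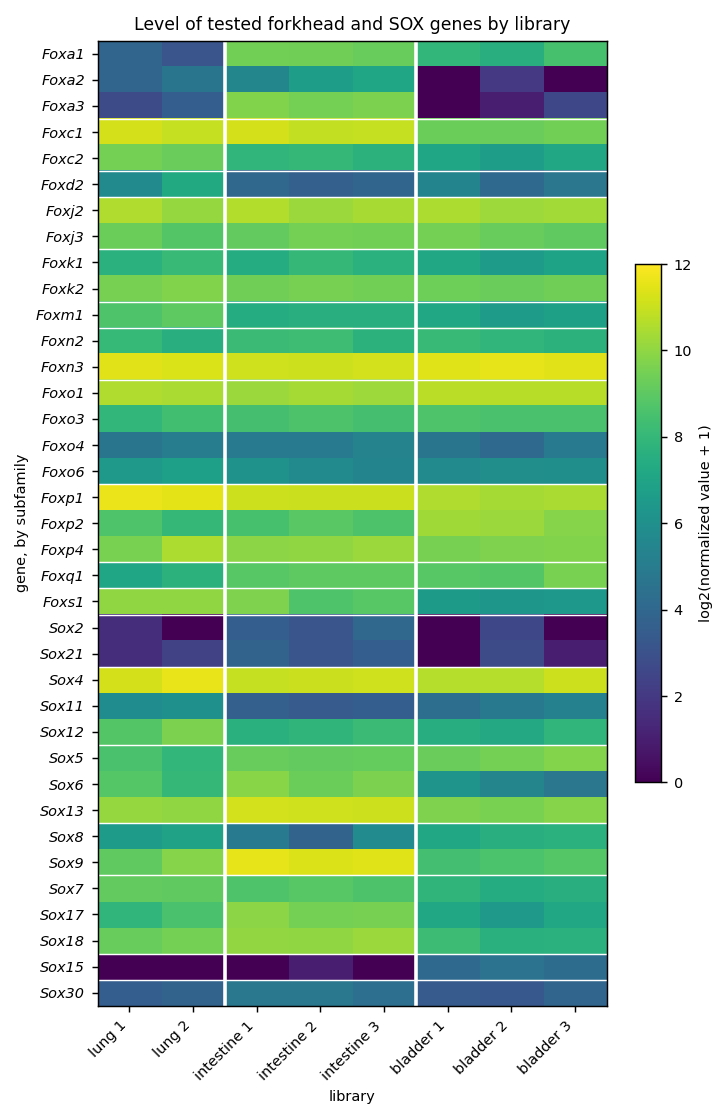
Level of the 37 tested forkhead and SOX genes (rows, by subfamily) in each of the 8 libraries (columns, lung, intestine, bladder), as log2(normalized value + 1) from dark blue (0) to yellow (12). Foxj2, Foxn3, Foxo1, Foxp1 and Sox4 are bright in every library, Sox9 and Sox13 are brightest in intestine, and Sox15 is dark outside bladder.

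Levels of different genes were compared per kb of exon. In lung the highest was Foxs1, at 785 ± 9.17 per kb (SD, n = 2), followed by Sox4 at 577 ± 106, Sox18 at 404 ± 62.4 and Foxc1 at 375 ± 55.3. Sox18 and Foxc1 were closer to each other than their SDs. In intestine Sox9 at 672 ± 42.4 and Sox18 at 667 ± 42.7 per kb (SD, n = 3) led and were likewise within their SDs, ahead of Sox13 at 526 ± 13.9. In bladder Sox4 led at 373 ± 65.3 per kb (SD, n = 3), with Foxn3 at 248 ± 12.2 and Foxj2 at 248 ± 21.9 next and indistinguishable from each other. Foxs1, first in lung, stood at 64.6 ± 4.34 per kb in bladder.

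The FOXA genes, pioneer factors of endoderm-derived epithelium, showed the widest range of all members. Foxa1 (chr12:57587414-57593702 in mm39) had values of 14 and 8 in lung, 696, 680 and 591 in intestine, and 246, 189 and 360 in bladder. The 3 organs did not overlap, and intestine was highest and lung lowest. Its log2 difference was -4.47 ± 0.31 for lung minus bladder (adjusted p = 6.75e-06), 1.35 ± 0.28 for intestine minus bladder (adjusted p = 0.00269) and -5.82 ± 0.31 for lung minus intestine (adjusted p = 1.2e-06). Foxa3, a FOXA gene of gut and liver (chr7:18747209-18757463), had values of 6 and 11 in lung, 859, 723 and 794 in intestine, and 0, 1 and 5 in bladder. It was high in intestine alone and close to the floor of detection in bladder. The log2 difference was 2.00 ± 0.67 for lung minus bladder (adjusted p = 0.0386), 8.43 ± 0.60 for intestine minus bladder (adjusted p = 4.1e-06) and -6.43 ± 0.67 for lung minus intestine (adjusted p = 6.66e-05). The call between lung and bladder was lost with quantile normalization and without lung library 2 (1.61), bladder library 1 (1.40) or bladder library 2 (1.90), or any of the 3 intestine libraries. Without bladder library 1 and without bladder library 3 the difference between intestine and bladder was 7.84 and 9.13. Foxa2, needed for foregut endoderm and the lung epithelium (chr2:147884797-147888889), had values of 14 and 24 in lung, 45, 102 and 133 in intestine, and 0, 3 and 0 in bladder. Intestine was again highest, and the bladder value came from 1 library. Since bladder held 2 reads in all, the ratio of reads is given with an exact 95% interval, 23.7 (6.19 to 202) for lung over bladder and 116 (31.9 to 963) for intestine over bladder. Such intervals and the floors used below cover counting error only, since reads amplified from cDNA and lacking molecular identifiers do not each stand for a separate molecule. In limma Foxa2 was higher than in bladder in both lung (adjusted p = 0.00357) and intestine (adjusted p = 7.12e-05), under all alternatives run. The difference between lung and intestine was -2.15 ± 0.73 for lung minus intestine (adjusted p = 0.0422). This call was lost without lung library 1 (-1.78), lung library 2 (-2.52), intestine library 2 (-2.02) or intestine library 3 (-1.83), with quantile normalization and with a pseudocount of 0.5.

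Because of these levels the 3 organs differed in which FOXA gene dominated, taken as a share of FOXA values per kb. In bladder Foxa1 made up 98.3 ± 1.56% (SD, n = 3). In intestine Foxa3 made up 62.1 ± 3.01% and Foxa1 31.5 ± 2.78% (SD, n = 3). In lung, where all 3 genes were low, Foxa2 had 45.2% and 56.5% in the 2 libraries. General epithelial markers were highest in intestine and lowest in lung, as was Foxa1. Foxa2 and Foxa3 were also highest in intestine and were higher in lung than in bladder. For Foxa3 the call between lung and bladder was lost in 7 of 17 alternatives. Of 10 general epithelial markers, 0 were higher and 10 lower in lung than in bladder, 9 were higher and 0 lower in intestine than in bladder, and 0 were higher and 10 lower in lung than in intestine. They summed to 62.8 to 99.7 ppm in lung, 1474 to 1563 ppm in intestine and 350 to 569 ppm in bladder, and none was at 0 throughout an organ. Of all genes, 19.2%, 28.7% and 15.9% were higher and 21.8%, 23.3% and 23.6% lower in the same pairs. The 10 intestinal epithelial markers summed to 26.0 to 50.2 ppm in lung, 1042 to 1166 ppm in intestine and 38.0 to 45.7 ppm in bladder. Cdx1, Cdx2 and Tff3 were listed at 0 in lung and bladder, and Alpi in bladder. Urothelial markers, 9 in all, summed to 31.9 to 40.2 ppm in lung, 62.4 to 68.1 ppm in intestine and 574 to 786 ppm in bladder, with Krt5 and Upk2 at 0 in lung and Krt5 at 0 in intestine. Lung epithelial markers, 10 in all, summed to 353 to 368 ppm in lung, 58.9 to 63.8 ppm in intestine and 31.7 to 39.5 ppm in bladder, with Scgb3a2 at 0 in intestine and Sftpa1 at 0 in bladder. The part of epithelial RNA in the FOXA values was not tested.

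A list of 12 factors that act beside FOXA and SOX proteins in epithelium was counted as a group. In lung 1 was higher and 6 lower than in bladder, in intestine 9 were higher and 2 lower than in bladder, and in lung 2 were higher and 10 lower than in intestine. Of all genes, 41%, 51.9% and 39.5% were called in these pairs. The median log2 differences of the 12 factors were -1.25, 3.65 and -6.99, beside 0.00, 0.06 and -0.04 for all genes. With genes at 0 in an organ set to their bound of 3 reads per library, the first became -0.88 and the others did not change. Hnf4a, a nuclear receptor of gut and liver epithelium, averaged 0 ± 0 in lung, 1761 ± 252 in intestine and 1 ± 1 in bladder. Its paralogue Hnf4g averaged 666 ± 104 in intestine (SD, n = 3) and was 0 in every lung and bladder library, and the intestinal homeobox factor Cdx2 averaged 503 ± 65.0 there and was likewise 0 elsewhere. Elf3, an epithelial ETS factor, averaged 9.5 ± 0.707 in lung, 2297 ± 99.3 in intestine and 185 ± 86 in bladder. Its log2 difference was -4.05 ± 0.31 for lung minus bladder (adjusted p = 1.15e-05) and 3.72 ± 0.28 for intestine minus bladder (adjusted p = 5.41e-06). Elf3 is also among the general epithelial markers.

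Of the SOXE genes left in, Sox9 and Sox8 ran in opposite directions. Sox9, known from cartilage, epithelial progenitors and the intestinal crypt (chr11:112673050-112678586), had values of 534 and 907 in lung, 2968, 2624 and 2738 in intestine, and 335, 385 and 459 in bladder. Every intestine library was above every lung and bladder library, and lung was above bladder by a smaller step. Limma gave a log2 difference of 0.83 ± 0.21 for lung minus bladder (adjusted p = 0.0107), 2.83 ± 0.19 for intestine minus bladder (adjusted p = 2.66e-06) and -1.99 ± 0.21 for lung minus intestine (adjusted p = 6.98e-05). Lung library 2 was the higher of its pair, and without it the lung to bladder difference was 0.45 and not called. Sox8, a SOXE gene that overlaps in function with Sox9 and Sox10 in the mouse (chr17:25784866-25789660), had values of 94 and 120 in lung, 29, 13 and 54 in intestine, and 146, 181 and 203 in bladder. Bladder was highest and intestine lowest, without overlap. Fitted log2 differences were -0.72 ± 0.50 for lung minus bladder (adjusted p = 0.289), -2.63 ± 0.45 for intestine minus bladder (adjusted p = 0.00091) and 1.91 ± 0.50 for lung minus intestine (adjusted p = 0.0141). Without lung library 2 the difference between lung and intestine was 1.74 and no longer called. Sox8 made up 16.9 ± 2.83% of the Sox8 and Sox9 values per kb in lung (SD, n = 2), 1.49 ± 0.97% in intestine and 37.3 ± 0.94% in bladder (SD, n = 3). Cerox1, a long non-coding RNA on the opposite strand, overlaps Sox8 by 329 nt, and the kit does not mark strand, so reads in the overlap cannot be told apart. Cerox1 had values of 126 and 154 in lung, 142, 130 and 118 in intestine, and 336, 443 and 479 in bladder, and like Sox8 it was lower in intestine than in bladder (-1.67 ± 0.19 for intestine minus bladder (adjusted p = 6.57e-05)). Glial markers, 8 with Sox10 and Foxd3 among them, summed to 19.7 to 27.5 ppm in lung, 142 to 191 ppm in intestine and 12.9 to 19.6 ppm in bladder. Of the 8, 1 was higher and 4 lower in lung than in bladder, 8 were higher and 0 lower in intestine than in bladder, and 0 were higher and 7 lower in lung than in intestine, with Sox10 at 0 in lung. Of all genes, 19.2%, 28.7% and 15.9% were higher and 21.8%, 23.3% and 23.6% lower in these pairs. Sox8 was lowest in intestine, where Sox9 and the summed glial and general epithelial markers were highest. The part of either cell type in the Sox8 and Sox9 values was not tested.

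**Figure D3:**
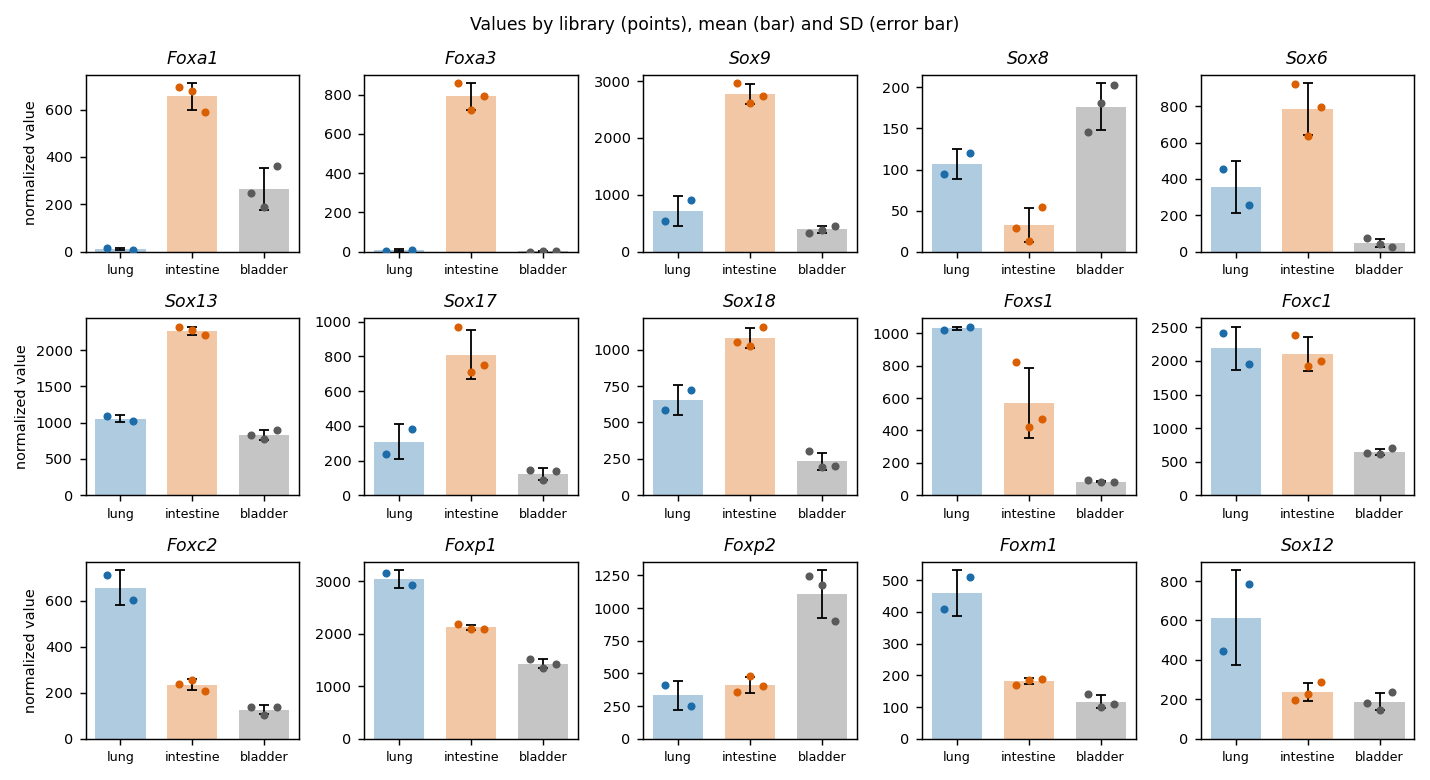
Normalized value of 15 members in each library (points), with the mean (bar from 0) and SD (error bar) of lung (n = 2), intestine (n = 3) and bladder (n = 3); each panel has its own linear axis. Foxa1, Foxa3, Sox6, Sox9, Sox13, Sox17 and Sox18 are highest in intestine, Foxc2, Foxm1, Foxp1, Foxs1 and Sox12 in lung, and Foxp2 and Sox8 in bladder.

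The SOXD genes, which lack a transactivation domain and tune the activity of other SOX proteins, also divided. Sox6 (chr7:115070107-115638031), a partner of SOX9 in cartilage, had values of 456 and 254 in lung, 921, 638 and 798 in intestine, and 74, 43 and 26 in bladder. Bladder was far below both other organs, and intestine was above lung without overlap. In limma the log2 difference was 2.93 ± 0.41 for lung minus bladder (adjusted p = 0.000419), 4.12 ± 0.36 for intestine minus bladder (adjusted p = 1.56e-05) and -1.19 ± 0.41 for lung minus intestine (adjusted p = 0.0446). The call between lung and intestine was lost without lung library 2 (-0.77), any intestine library (-1.33 to -1.07) or bladder library 2 (-1.19), with a pseudocount of 0.5 and with the deposited scaling undone. Sox6os, a long non-coding RNA inside Sox6 on the opposite strand, ran the same way, with values of 41 and 21 in lung, 88, 56 and 73 in intestine, and 1, 1 and 3 in bladder and a log2 difference of 3.59 ± 0.50 for lung minus bladder (adjusted p = 0.000438) and 4.84 ± 0.45 for intestine minus bladder (adjusted p = 2.13e-05). Its part in the Sox6 values was not tested. Sox5, the other cartilage partner (chr6:143774151-144727703), had values of 376 and 248 in lung, 587, 560 and 564 in intestine, and 614, 708 and 877 in bladder. It was lowest in lung and highest in bladder, without overlap. On the log2 scale it differed by -1.25 ± 0.20 for lung minus bladder (adjusted p = 0.000871), -0.35 ± 0.17 for intestine minus bladder (adjusted p = 0.128) and -0.90 ± 0.20 for lung minus intestine (adjusted p = 0.0056). The difference between intestine and bladder was called with quantile normalization, without lung library 1 or lung library 2 and with only those 2 organs fitted. Sox13, an autoantigen gene known from T cells and developing arteries (chr1:133310041-133352115), had values of 1091 and 1019 in lung, 2322, 2275 and 2203 in intestine, and 824, 771 and 905 in bladder. Intestine was highest with little spread. By limma it differed on the log2 scale by 0.34 ± 0.09 for lung minus bladder (adjusted p = 0.0132), 1.45 ± 0.08 for intestine minus bladder (adjusted p = 1.07e-06) and -1.10 ± 0.09 for lung minus intestine (adjusted p = 1.35e-05). The step between lung and bladder was not called when those 2 organs were fitted alone. As a share of SOXD values per kb, Sox13 led everywhere at 84.5 ± 4.00% in lung (SD, n = 2), 85.0 ± 1.35% in intestine and 78.1 ± 1.64% in bladder (SD, n = 3). Next to it stood Sox5 in bladder at 20.5 ± 2.35%, with Sox6 at 1.33 ± 0.73%, while in intestine Sox6 had 8.55 ± 1.35% and Sox5 6.42 ± 0.07%.

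The 14 listed cartilage genes that SOX9, SOX5 and SOX6 activate in chondrocytes were mostly low here. Of these, 12 were in the table and 9 passed the filter. In lung 2 were higher and 3 lower than in bladder, in intestine 5 were higher and 2 lower than in bladder, and in lung 1 was higher and 4 lower than in intestine, with median log2 differences of -0.01, 1.80 and -1.89. They summed to 55.3 to 85.2 ppm in lung, 173 to 181 ppm in intestine and 70.4 to 103 ppm in bladder. Col11a2, a fibrillar collagen chain of cartilage, averaged 16 ± 12.7 in lung, 598 ± 51.8 in intestine and 11.3 ± 2.08 in bladder, with a log2 difference of 5.61 ± 0.42 for intestine minus bladder (adjusted p = 5.56e-06) and -5.37 ± 0.47 for lung minus intestine (adjusted p = 2.14e-05). The collagen IX chain Col9a3 averaged 4 ± 1.41 in lung, 269 ± 27.7 in intestine and 38.3 ± 8.51 in bladder, and Col9a2 averaged 0.5 ± 0.707 in lung, 91 ± 38.2 in intestine and 17.7 ± 10.5 in bladder. Cytl1, a small secreted protein of cartilage, averaged 462 ± 95.5 in lung, 847 ± 44.3 in intestine and 130.3 ± 28.2 in bladder and was higher than in bladder in both lung (1.82 ± 0.21 for lung minus bladder (adjusted p = 0.000123)) and intestine (2.71 ± 0.19 for intestine minus bladder (adjusted p = 3.41e-06)). These 4 were named for the smallest F test p, and all were highest in intestine. Of the 9 tested, 2 were lower in intestine than in bladder (23.3% of all genes). In lung 1 was higher than in intestine (15.9% of all genes). Among 14 listed SOX partner factors, 11 were in the table and 10 tested, with 1 higher and 6 lower in lung than in bladder and 1 higher and 5 lower in intestine than in bladder, beside 21.8% and 23.3% of all genes lower in these pairs. Undoing the deposited scaling left 3 higher and 2 lower in lung than in bladder and 3 higher and 4 lower in intestine, and equal totals left 3 higher and 3 lower in lung. Between lung and intestine 1 was higher and 1 lower in lung, and the median log2 differences in the 3 pairs were -0.50, -0.51 and 0.12. Mef2c, a MADS factor of muscle and endothelium, averaged 1528 ± 509 in lung, 3575 ± 507 in intestine and 440.0 ± 51.4 in bladder and was the exception, with a log2 difference of 1.76 ± 0.20 for lung minus bladder (adjusted p = 0.000111), 3.02 ± 0.18 for intestine minus bladder (adjusted p = 1.42e-06) and -1.26 ± 0.20 for lung minus intestine (adjusted p = 0.000862). Gli1, the transcriptional readout of hedgehog signalling, averaged 428 ± 68.6 in lung, 391 ± 56.4 in intestine and 1093 ± 79.6 in bladder, and Nfatc1 averaged 1398 ± 206 in lung, 1345 ± 179 in intestine and 2296 ± 16.5 in bladder. Gli1 (-1.36 ± 0.16 for lung minus bladder (adjusted p = 0.000128) and -1.49 ± 0.14 for intestine minus bladder (adjusted p = 2.21e-05)) and Nfatc1 (-0.72 ± 0.12 for lung minus bladder (adjusted p = 0.00122) and -0.78 ± 0.11 for intestine minus bladder (adjusted p = 0.000255)) were lower in lung and in intestine than in bladder. Pou3f3, a POU factor, averaged 4.5 ± 2.12 in lung, 0 ± 0 in intestine and 16.7 ± 9.29 in bladder, and was lower in intestine, at 0 in each library, than in bladder (adjusted p = 0.000135).

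All 3 SOXF genes, which direct endothelial and lymphatic identity, were higher in lung and in intestine than in bladder. Sox17, an arterial and endoderm factor (chr1:4561154-4567577), had values of 237 and 381 in lung, 972, 708 and 751 in intestine, and 145, 85 and 141 in bladder. The organs did not overlap, and intestine was highest. The log2 difference was 1.31 ± 0.29 for lung minus bladder (adjusted p = 0.00522), 2.73 ± 0.26 for intestine minus bladder (adjusted p = 2.21e-05) and -1.41 ± 0.29 for lung minus intestine (adjusted p = 0.0037). Sox18, needed for lymphatic vessels to form (chr2:181311629-181313433), had values of 583 and 726 in lung, 1055, 1028 and 1159 in intestine, and 302, 194 and 201 in bladder, in the same order and without overlap. Its log2 difference was 1.51 ± 0.20 for lung minus bladder (adjusted p = 0.000276), 2.24 ± 0.17 for intestine minus bladder (adjusted p = 7.25e-06) and -0.73 ± 0.20 for lung minus intestine (adjusted p = 0.016). Without lung library 1 (-0.57) or intestine library 3 (-0.68) the difference between lung and intestine was not called. Sox7, an early endothelial factor (chr14:64181122-64188181), had values of 560 and 543 in lung, 418, 466 and 395 in intestine, and 230, 173 and 184 in bladder. Unlike its relatives it was no higher in intestine than in lung. Limma gave a log2 difference of 1.50 ± 0.16 for lung minus bladder (adjusted p = 8.21e-05), 1.13 ± 0.14 for intestine minus bladder (adjusted p = 0.000148) and 0.37 ± 0.16 for lung minus intestine (adjusted p = 0.0933). Sox7 made up 26.5 ± 3.91% of SOXF values per kb in lung (SD, n = 2), 13.4 ± 1.67% in intestine and 26.2 ± 1.68% in bladder (SD, n = 3), and Sox18 had the largest share in each organ, between 62.5% and 69.0%. Blood endothelial markers, like the SOXF genes, were mostly higher in lung and in intestine than in bladder. Of 12 blood endothelial markers, 8 were higher and 2 lower in lung than in bladder, 11 were higher and 1 lower in intestine than in bladder, and 0 were higher and 6 lower in lung than in intestine. They summed to 1080 to 1205 ppm in lung, 1647 to 1811 ppm in intestine and 610 to 782 ppm in bladder. Of all genes, 19.2%, 28.7% and 15.9% were higher and 21.8%, 23.3% and 23.6% lower in the same pairs. Lymphatic markers, 6 in all, summed to 84.1 to 97.8 ppm in lung, 1185 to 1426 ppm in intestine and 336 to 558 ppm in bladder, and all 6 were lower in lung than in bladder. No marker of either list was at 0 throughout an organ. Sox17, Sox18 and the summed blood endothelial markers were highest in intestine and lowest in bladder. The summed lymphatic markers were also highest in intestine and were lowest in lung. Sox7 was lowest in bladder and not called between lung and intestine. The part of endothelial RNA in the SOXF values was not tested.

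Foxs1, Foxc1 and Foxc2, forkhead genes of mesenchyme and mural cells, were higher in lung and in intestine than in bladder. Foxs1, known in mice from pericytes and other perivascular cells (chr2:152773818-152775128), had values of 1021 and 1038 in lung, 820, 419 and 472 in intestine, and 91, 80 and 83 in bladder. Both lung libraries were above all others, and the intestine libraries spread widely, with intestine library 1 near lung. Bladder was lowest with little spread. Fitted log2 differences were 3.59 ± 0.26 for lung minus bladder (adjusted p = 8.09e-06), 2.67 ± 0.23 for intestine minus bladder (adjusted p = 1.26e-05) and 0.92 ± 0.26 for lung minus intestine (adjusted p = 0.0191). The call between lung and intestine was lost without lung library 1 (0.93), lung library 2 (0.90), intestine library 2 (0.73) or intestine library 3 (0.81). Foxc1, which with Foxc2 shapes vessels and mesenchyme (chr13:31990616-31996459), had values of 2419 and 1962 in lung, 2388, 1919 and 1999 in intestine, and 634, 614 and 702 in bladder. Lung and intestine overlapped and bladder was well below both. In limma the log2 difference was 1.75 ± 0.13 for lung minus bladder (adjusted p = 8.49e-06), 1.69 ± 0.11 for intestine minus bladder (adjusted p = 2.8e-06) and 0.06 ± 0.13 for lung minus intestine (adjusted p = 0.744). Foxc2, known for lymphatic valves (chr8:121842910-121845634), had values of 710 and 602 in lung, 236, 256 and 209 in intestine, and 137, 105 and 139 in bladder. It separated all 3 organs, with lung highest. On the log2 scale it differed by 2.37 ± 0.19 for lung minus bladder (adjusted p = 1.5e-05), 0.88 ± 0.17 for intestine minus bladder (adjusted p = 0.00188) and 1.49 ± 0.19 for lung minus intestine (adjusted p = 0.000248). The call between intestine and bladder was lost with quantile normalization. The summed lymphatic markers, given with the SOXF genes, were highest in intestine and lowest in lung. The part of lymphatic RNA in the Foxc2 values was not tested. Foxc2 made up 39.2 ± 0.75% of FOXC values per kb in lung (SD, n = 2), 19.4 ± 2.54% in intestine and 29.4 ± 2.44% in bladder (SD, n = 3). Of 10 vascular smooth muscle and pericyte markers, 7 were higher and 0 lower in lung than in bladder, 7 were higher and 1 lower in intestine than in bladder, and 2 were higher and 1 lower in lung than in intestine. Their summed levels, given above, overlapped between lung and intestine, and no marker was at 0. Of all genes, 19.2%, 28.7% and 15.9% were higher and 21.8%, 23.3% and 23.6% lower in the same pairs. The part of mural cell RNA in the Foxs1 and FOXC values was not tested.

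Foxd2, a factor of kidney and facial mesenchyme (chr4:114763479-114766070), had values of 53 and 157 in lung, 15, 12 and 14 in intestine, and 41, 16 and 26 in bladder. Lung was highest, with a wide gap between its 2 libraries. By limma it differed on the log2 scale by 1.78 ± 0.55 for lung minus bladder (adjusted p = 0.0269), -0.88 ± 0.49 for intestine minus bladder (adjusted p = 0.164) and 2.66 ± 0.55 for lung minus intestine (adjusted p = 0.00403). The higher lung library set the size of these differences. Without lung library 1 they were 2.56 for lung minus bladder and 3.43 for lung minus intestine, and without lung library 2 they were 1.01 and 1.89, the first of these not called. The call between lung and bladder was also lost without bladder library 2 (1.46) or bladder library 3 (1.79) and with the replicate number as a block. Foxd2os, a long non-coding RNA that starts 354 nt from Foxd2 on the other strand, had values of 58 and 133 in lung, 8, 12 and 11 in intestine, and 28, 24 and 53 in bladder, in which the same lung library was the higher. Foxq1, an epithelial factor that Wnt signalling induces (chr13:31740117-31744959), had values of 136 and 206 in lung, 468, 512 and 527 in intestine, and 473, 441 and 762 in bladder. Lung was below both other organs, which overlapped. The log2 difference was -1.69 ± 0.25 for lung minus bladder (adjusted p = 0.000646), -0.11 ± 0.23 for intestine minus bladder (adjusted p = 0.706) and -1.58 ± 0.25 for lung minus intestine (adjusted p = 0.000977). Foxq1 lies 245657 nt from Foxc1 on the same strand of chromosome 13, and the pair differed in which organ was lowest, bladder for Foxc1 and lung for Foxq1.

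**Figure D4:**
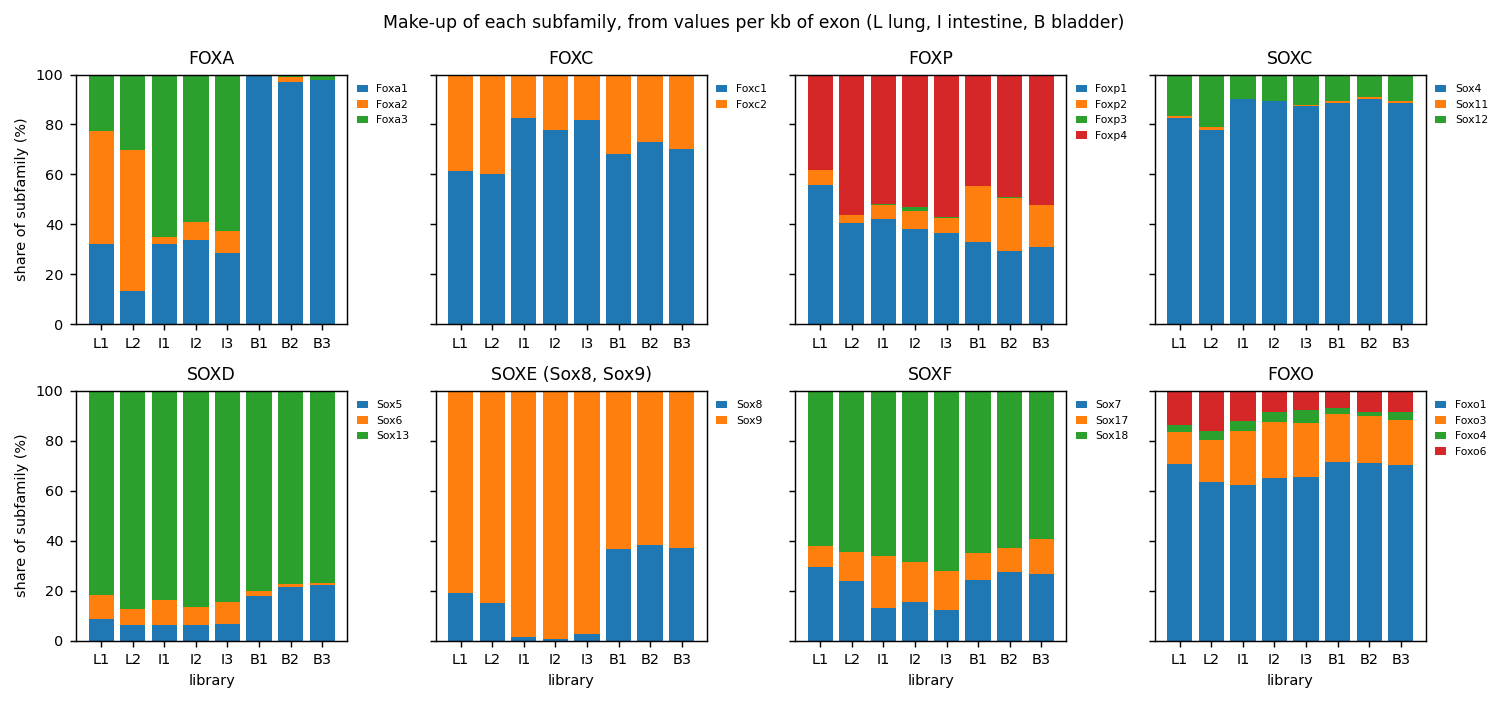
Share of each member in the summed values per kb of its subfamily (y axis, percent) in each library (L lung, I intestine, B bladder, with the library number), for FOXA, FOXC, FOXP, SOXC, SOXD, Sox8 with Sox9, SOXF and FOXO. The FOXA panel is nearly all Foxa1 in bladder (98.3%) and mostly Foxa3 in intestine (62.1%), while the FOXO panel changes little, with Foxo1 between 62.4% and 71.5%.

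The FOXP genes, transcriptional repressors that pair with each other, split between Foxp1 and Foxp2. Foxp1, a factor of lung and oesophagus development (chr6:98902299-99499682), had values of 3168 and 2929 in lung, 2183, 2092 and 2095 in intestine, and 1528, 1352 and 1420 in bladder. The 3 organs did not overlap and ran from lung down to bladder. Limma gave a log2 difference of 1.09 ± 0.08 for lung minus bladder (adjusted p = 7.33e-06), 0.57 ± 0.07 for intestine minus bladder (adjusted p = 0.000105) and 0.52 ± 0.08 for lung minus intestine (adjusted p = 0.000587). Foxp2, known for neural circuits of speech and for lung epithelium (chr6:14901348-15441976), had values of 412 and 254 in lung, 358, 480 and 404 in intestine, and 1248, 1176 and 903 in bladder. Every bladder library was above every library of lung and intestine, which overlapped. Fitted log2 differences were -1.76 ± 0.23 for lung minus bladder (adjusted p = 0.000252), -1.42 ± 0.20 for intestine minus bladder (adjusted p = 0.000301) and -0.34 ± 0.23 for lung minus intestine (adjusted p = 0.257). Without lung library 1, Foxp2 was at -0.69 for lung minus intestine. Foxp4 had values of 776 and 1450 in lung, 965, 1045 and 1162 in intestine, and 742, 816 and 856 in bladder, and no pair was called. Its lung libraries lay on either side of intestine, and the difference between lung and intestine was 0.46 and called without lung library 1, and turned to -0.44 without lung library 2. Foxp4 was also called higher in intestine than in bladder without lung library 1 or lung library 2, with the deposited scaling undone and with only those 2 organs fitted, and higher in lung than in bladder without lung library 1 and with the scaling undone. Foxp2 made up 4.53 ± 2.21% of FOXP values per kb in lung (SD, n = 2), 6.36 ± 0.84% in intestine and 20.2 ± 3.14% in bladder (SD, n = 3). Foxp3, the master factor of regulatory T cells, did not pass the filter and had values of 4 and 3 in lung, 5, 31 and 8 in intestine, and 0, 4 and 0 in bladder. Its intestine level came mostly from library 2. With 3 reads in bladder, the ratio of reads for intestine over bladder was 12.4 (exact 95% interval 4.01 to 62.4). Lymphocyte markers, 10 in all, summed to 7.06 to 13.2 ppm in lung, 38.3 to 51.0 ppm in intestine and 6.41 to 10.5 ppm in bladder. Ctla4 and Il2ra were at 0 in lung, and Cd3e, Ctla4 and Ms4a1 in bladder. In lung 4 were higher and 2 lower than in bladder, in intestine 6 were higher and 0 lower than in bladder, and in lung 0 were higher and 7 lower than in intestine. Of all genes, 19.2%, 28.7% and 15.9% were higher and 21.8%, 23.3% and 23.6% lower in these pairs. The part of lymphocyte RNA in the Foxp3 reads was not tested. Gm36995, Flicr and Ppp1r3f overlap Foxp3, so its reads cannot be told from theirs.

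The 12 listed partner and co-repressor genes of FOXP proteins were called in both directions in every pair of organs as deposited. Of all genes, 41% were called between lung and bladder, 51.9% between intestine and bladder and 39.5% between lung and intestine, in both directions. In lung 3 were higher and 1 lower than in bladder, in intestine 4 were higher and 5 lower than in bladder, and in lung 5 were higher and 1 lower than in intestine, with median log2 differences of 0.08, -0.16 and 0.32. With the deposited scaling undone, 8 were higher and 0 lower in lung than in bladder, and 5 and 0 in intestine. The co-repressor Ctbp1, which FOXP1 and FOXP2 bind, averaged 3644 ± 164 in lung, 3362 ± 106 in intestine and 4748 ± 162 in bladder. It was lower in lung (-0.38 ± 0.06 for lung minus bladder (adjusted p = 0.000919)) and in intestine (-0.50 ± 0.05 for intestine minus bladder (adjusted p = 5.58e-05)) than in bladder, in lung by less than the 0.48 by which all genes moved with the scaling undone. The Groucho co-repressor Tle1 averaged 1565 ± 216 in lung, 2401 ± 124 in intestine and 1453 ± 109.5 in bladder and was higher in intestine than in bladder (0.73 ± 0.09 for intestine minus bladder (adjusted p = 0.000147)). Its relative Tle3 averaged 713 ± 119 in lung, 508 ± 20.5 in intestine and 862 ± 79 in bladder and was lower in intestine than in bladder (-0.76 ± 0.12 for intestine minus bladder (adjusted p = 0.000504)).

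Foxm1, which drives genes of the G2 phase and mitosis (chr6:128339930-128353109), was higher in lung than in the other organs, with values of 408 and 511 in lung, 170, 185 and 190 in intestine, and 140, 99 and 111 in bladder. The organs did not overlap, and intestine was closer to bladder than to lung. In limma the log2 difference was 1.97 ± 0.21 for lung minus bladder (adjusted p = 7.19e-05), 0.65 ± 0.18 for intestine minus bladder (adjusted p = 0.0152) and 1.33 ± 0.21 for lung minus intestine (adjusted p = 0.000822). The step between intestine and bladder was not called without intestine library 3 (0.61) or bladder library 2 (0.54), or with quantile normalization. Of 18 known FOXM1 target genes, 16 were higher and 1 lower in lung than in bladder, 15 were higher and 2 lower in intestine than in bladder, and 8 were higher and 0 lower in lung than in intestine. Of all genes, 41%, 51.9% and 39.5% were called in these pairs. The median log2 differences of the 18 targets were 2.42, 1.41 and 0.82, beside 0.00, 0.06 and -0.04 for all genes. The mitotic kinase Plk1 averaged 720.5 ± 305 in lung, 383 ± 35 in intestine and 70.7 ± 25.3 in bladder, with a log2 difference of 3.32 ± 0.33 for lung minus bladder (adjusted p = 5.16e-05) and 2.48 ± 0.29 for intestine minus bladder (adjusted p = 9.31e-05). Cyclin B1 (Ccnb1) averaged 530.5 ± 221 in lung, 173 ± 13.1 in intestine and 71 ± 11.3 in bladder and differed in every pair, by 2.83 ± 0.28 for lung minus bladder (adjusted p = 4.98e-05), 1.28 ± 0.25 for intestine minus bladder (adjusted p = 0.00192) and 1.55 ± 0.28 for lung minus intestine (adjusted p = 0.00187). Aurkb, the kinase of the chromosomal passenger complex, averaged 604 ± 269 in lung, 273 ± 49 in intestine and 92.3 ± 15.3 in bladder. Its log2 difference was 2.63 ± 0.29 for lung minus bladder (adjusted p = 9.65e-05), 1.55 ± 0.26 for intestine minus bladder (adjusted p = 0.000788) and 1.08 ± 0.29 for lung minus intestine (adjusted p = 0.0153). The proliferation antigen gene Mki67 averaged 442 ± 85.6 in lung, 426 ± 63.7 in intestine and 84.7 ± 30.6 in bladder and, unlike Foxm1, was close in lung and intestine (0.05 ± 0.28 for lung minus intestine (adjusted p = 0.899)). The summed targets ran from 650 to 1153 ppm in lung, 484 to 532 ppm in intestine and 234 to 276 ppm in bladder, so that the 2 lung libraries differed widely although their Foxm1 values were close.

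The FOXO genes, which insulin and growth factor signals hold out of the nucleus through AKT, differed by less than 1 on the log2 scale in every pair of organs. Foxo1 (chr3:52175757-52260642) had values of 1539 and 1417 in lung, 1179, 1333 and 1210 in intestine, and 1750, 1661 and 1680 in bladder. Bladder was highest and intestine lowest, in narrow steps. On the log2 scale it differed by -0.20 ± 0.08 for lung minus bladder (adjusted p = 0.0846), -0.45 ± 0.07 for intestine minus bladder (adjusted p = 0.00073) and 0.25 ± 0.08 for lung minus intestine (adjusted p = 0.0376). Once the deposited scaling was undone it turned to 0.31 for lung minus bladder, and the call between intestine and bladder was lost. The call between lung and intestine was lost without lung library 1 (0.19), intestine library 1 (0.22) or 3 (0.24) or any bladder library (0.25), with the replicate number as a block and with only those 2 organs fitted. Foxo3 had values of 248 and 333 in lung, 354, 403 and 352 in intestine, and 408, 380 and 376 in bladder, with lung below the others and no pair called. Foxo6 and Foxo4 were low, at 42 to 108 and 16 to 40 over the 8 libraries. Foxo6 was higher in lung than in intestine (0.87 ± 0.31 for lung minus intestine (adjusted p = 0.0487)), a call lost without any library but intestine library 1 (0.70 to 1.00), with a pseudocount of 0.5, with the replicate block and with only those 2 organs fitted. Foxo6os, a long non-coding RNA 3992 nt from Foxo6, had values of 19 and 22 in lung, 4, 6 and 0 in intestine, and 0, 3 and 1 in bladder. As a share of FOXO values per kb, Foxo1 made up 66.9 ± 5.13% in lung (SD, n = 2), 64.3 ± 1.65% in intestine and 71.0 ± 0.58% in bladder (SD, n = 3).

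Regulators and targets of FOXO were called in both directions in every pair of organs as deposited. So were all genes, of which 41% were called between lung and bladder, 51.9% between intestine and bladder and 39.5% between lung and intestine. Of 18 regulators, 4 were higher and 6 lower in lung than in bladder, 7 were higher and 3 lower in intestine than in bladder, and 2 were higher and 4 lower in lung than in intestine, with medians of -0.04, 0.21 and -0.07. When the deposited scaling was undone, which by construction shifts all genes upward in lung and intestine, the split turned to 9 higher and 2 lower between lung and bladder. Between intestine and bladder it turned to 11 and 2. Irs2, an insulin receptor substrate and itself a FOXO target, averaged 1807 ± 103 in lung, 5113 ± 368 in intestine and 3735 ± 384 in bladder and differed in every pair (-1.04 ± 0.10 for lung minus bladder (adjusted p = 3.72e-05), 0.46 ± 0.09 for intestine minus bladder (adjusted p = 0.00181) and -1.50 ± 0.10 for lung minus intestine (adjusted p = 3.37e-06)). The receptor Igf1r averaged 993 ± 8.48 in lung, 654 ± 58.4 in intestine and 485 ± 19.7 in bladder and was highest in lung (1.03 ± 0.11 for lung minus bladder (adjusted p = 7.74e-05) and 0.60 ± 0.11 for lung minus intestine (adjusted p = 0.00194)). The kinases Sgk1 and Akt2, which phosphorylate FOXO proteins, were lower in both organs than in bladder. Sgk1 averaged 2336 ± 385 in lung, 1974 ± 94.9 in intestine and 4043 ± 312 in bladder and Akt2 averaged 1838 ± 16.3 in lung, 1520.0 ± 90.4 in intestine and 2465 ± 90.5 in bladder. Their log2 differences from bladder were -0.80 ± 0.11 for lung minus bladder (adjusted p = 0.000322) and -1.03 ± 0.10 for intestine minus bladder (adjusted p = 1.98e-05) for Sgk1, and -0.42 ± 0.07 for lung minus bladder (adjusted p = 0.00172) and -0.70 ± 0.07 for intestine minus bladder (adjusted p = 2.58e-05) for Akt2, in lung less than the shift of 0.48 of all genes with the scaling undone. Of 19 FOXO target genes, 2 were higher and 6 lower in lung than in bladder, 6 were higher and 4 lower in intestine than in bladder, and 1 was higher and 5 lower in lung than in intestine, with medians of -0.12, 0.05 and -0.16. With the scaling undone, 6 were higher and 2 lower in lung than in bladder, and 10 and 2 in intestine than in bladder. Ccng2, a cyclin of quiescent cells, averaged 973 ± 96.2 in lung, 956 ± 139 in intestine and 2627 ± 177 in bladder, and was lower than in bladder in lung (-1.43 ± 0.13 for lung minus bladder (adjusted p = 2.82e-05)) and intestine (-1.47 ± 0.11 for intestine minus bladder (adjusted p = 6.93e-06)). The 2 muscle ubiquitin ligases did not go together. Fbxo32 averaged 1086 ± 361 in lung, 1449 ± 59.4 in intestine and 638 ± 21.6 in bladder, and Trim63 averaged 29.0 ± 15.6 in lung (SD, n = 2) and 19.3 ± 5.03 in bladder (SD, n = 3) and was 0 in every intestine library. Klf2, a flow-induced factor of endothelium, averaged 1362 ± 251 in lung, 2841 ± 168 in intestine and 2734 ± 31.1 in bladder. It was lower in lung than in bladder (-1.02 ± 0.11 for lung minus bladder (adjusted p = 7.18e-05)).

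Among the widely expressed forkhead genes of the FOXK, FOXN and FOXJ groups, Foxk1, Foxk2 and Foxn3 were called in at least 1 pair of organs and Foxj2, Foxj3 and Foxn2 in none. Foxn3, a checkpoint repressor (chr12:99156337-99529841), had values of 2835 and 2589 in lung, 2268, 2142 and 2299 in intestine, and 2758, 3016 and 2793 in bladder. Intestine was lowest, and lung and bladder overlapped. By limma it differed on the log2 scale by -0.07 ± 0.07 for lung minus bladder (adjusted p = 0.454), -0.35 ± 0.07 for intestine minus bladder (adjusted p = 0.0015) and 0.28 ± 0.07 for lung minus intestine (adjusted p = 0.0143). With the deposited scaling undone the difference between intestine and bladder turned to 0.04, and that between lung and bladder to 0.44, or 0.20 with quantile normalization, under which the call between intestine and bladder was also lost. The call between lung and intestine was lost without lung library 1 (0.21) or intestine library 2 (0.25). Foxk1, which with Foxk2 represses autophagy genes and raises glycolysis, had values of 205 and 268 in lung, 169, 251 and 199 in intestine, and 146, 99 and 125 in bladder. Bladder was lowest. The log2 difference was 0.94 ± 0.25 for lung minus bladder (adjusted p = 0.015), 0.74 ± 0.23 for intestine minus bladder (adjusted p = 0.0211) and 0.20 ± 0.25 for lung minus intestine (adjusted p = 0.558). The call of lung was lost without lung library 2 (0.75), and that of intestine without intestine library 2 (0.59) or 3 (0.75), without bladder library 2 (0.59) and with quantile normalization. A long non-coding RNA without a symbol lies inside Foxk1 on the opposite strand, with 242 and 192 in lung, 189, 115 and 142 in intestine, and 62, 26 and 26 in bladder, so reads of the pair cannot be told apart where they overlap. Foxk2 had values of 750 and 852 in lung, 663, 754 and 695 in intestine, and 654, 604 and 664 in bladder, and was higher in lung than in bladder by 0.32 ± 0.11 for lung minus bladder (adjusted p = 0.0402), a call lost in 9 of 18 alternatives. These included leaving out lung library 2 (0.23), intestine library 3 (0.32) or any bladder library (0.28 to 0.35). Foxj2 had values of 1509 and 1088 in lung, 1563, 1163 and 1376 in intestine, and 1451, 1219 and 1311 in bladder, Foxj3 of 636 and 441 in lung, 555, 720 and 696 in intestine, and 709, 596 and 540 in bladder, and Foxn2 of 261 and 185 in lung, 290, 307 and 207 in intestine, and 278, 234 and 210 in bladder. All organs overlapped in these 3 genes, and the main fit called no pair. Foxj3 was at -0.30 for lung minus intestine, and at -0.56 without lung library 1. With the deposited scaling undone, Foxj2 and Foxj3 were called higher in intestine than in bladder. Frg2f1 on the opposite strand overlaps Foxj3 by 2526 nt, and its part in the Foxj3 values was not tested. The difference of Foxj2 between lung and bladder was -0.05 and turned to 0.46 with the deposited scaling undone.

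Of the SOXC genes, active in progenitor cells and in tissue repair, Sox12 was higher in lung than in both other organs, Sox4 than in bladder and Sox11 than in intestine. Sox4 (chr13:29132902-29137696) had values of 2404 and 3126 in lung, 1968, 2077 and 2212 in intestine, and 1607, 1606 and 2149 in bladder. It was abundant in every library. Limma gave a log2 difference of 0.63 ± 0.15 for lung minus bladder (adjusted p = 0.00793), 0.23 ± 0.13 for intestine minus bladder (adjusted p = 0.169) and 0.40 ± 0.15 for lung minus intestine (adjusted p = 0.0612). Without lung library 2 the difference between lung and bladder was 0.44 and not called. Between lung and intestine, where the libraries did not overlap, a difference was called with the replicate number as a block, with 2 other scalings, without lung library 1, without bladder library 3 and with only those 2 organs fitted. Sox12 (chr2:152235531-152239983), whose window above held a forkhead match, had values of 444 and 785 in lung, 196, 228 and 289 in intestine, and 180, 148 and 236 in bladder. Lung was highest and intestine and bladder overlapped. Fitted log2 differences were 1.67 ± 0.29 for lung minus bladder (adjusted p = 0.00151), 0.34 ± 0.26 for intestine minus bladder (adjusted p = 0.295) and 1.33 ± 0.29 for lung minus intestine (adjusted p = 0.00562). Sox11 (chr12:27384263-27392573), a factor of neural and mesenchymal progenitors, was lower, with values of 56 and 65 in lung, 12, 10 and 11 in intestine, and 19, 28 and 38 in bladder. The organs did not overlap, with lung highest and intestine lowest. In limma the log2 difference was 1.12 ± 0.40 for lung minus bladder (adjusted p = 0.0512), -1.24 ± 0.36 for intestine minus bladder (adjusted p = 0.0165) and 2.36 ± 0.40 for lung minus intestine (adjusted p = 0.0014). Below bladder, intestine was not called without intestine library 2 (-1.18) or bladder library 3 (-1.01), or with the deposited scaling undone. The difference of Sox11 between lung and bladder was called in 5 of 18 alternatives. These were a pseudocount of 5, the filter at 50, equal totals, the deposited scaling undone and leaving out bladder library 3. Sox12 made up 18.7 ± 3.32% of SOXC values per kb in lung (SD, n = 2), 10.8 ± 1.35% in intestine and 10.0 ± 0.96% in bladder (SD, n = 3).

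The remaining SOX genes were near the floor of detection, where 3 reads are worth 2.46 to 3.80 in normalized value. Sox15, the only SOXG gene and known from muscle satellite cells and placenta (chr11:69546140-69547553), had values of 0 and 0 in lung, 0, 1 and 0 in intestine, and 16, 23 and 18 in bladder. It was present in all 3 bladder libraries and nearly absent elsewhere. With no read in lung it was at least 7.51-fold lower there than in bladder, against a floor of 3 reads per library. With 1 read in intestine, the ratio of reads for bladder over intestine was 61.7 (exact 95% interval 10.6 to 2489). In limma Sox15 was lower in lung (adjusted p = 0.000161) and in intestine (adjusted p = 7.95e-05) than in bladder, and its plotted log2 differences depend on the pseudocount. Mpdu1 on the opposite strand overlaps Sox15 by 31 nt and had values of 534 and 711 in lung, 655, 692 and 660 in intestine, and 699, 730 and 685 in bladder. The urothelial markers, also highest in bladder, are given with the FOXA genes above, and their part in the Sox15 values was not tested. Sox2, a foregut and neural stem cell factor, had values of 2 and 0 in lung, 11, 8 and 15 in intestine, and 0, 5 and 0 in bladder, and its SOXB relative Sox21 had values of 2 and 4 in lung, 13, 8 and 11 in intestine, and 0, 6 and 1 in bladder. Both were highest in intestine at levels of a few reads. Sox2 lies inside Sox2ot, a long non-coding RNA on the same strand. Sox2ot had values of 2 and 0 in lung, 5, 12 and 0 in intestine, and 0, 4 and 0 in bladder. Its part in the Sox2 values was not tested. For Sox2 the ratio of reads was 13.4 for intestine over lung (exact 95% interval 3.45 to 114.5), where lung held 2 reads, and the log2 difference was 2.72 ± 0.77 for intestine minus bladder (adjusted p = 0.0147). Without bladder library 1 or 3 it was 2.29 and not called, and without bladder library 2 it was 3.58. The call of Sox2 between lung and intestine was lost without lung library 2, with the replicate block and with quantile normalization. For Sox21 the difference was 2.25 ± 0.69 for intestine minus bladder (adjusted p = 0.0213), and it was 1.62 without bladder library 1 and 2.12 without bladder library 3, neither of them called, and 3.02 without bladder library 2. Enteric neuron markers, 9 in all, summed to 75.7 to 133 ppm in lung, 360 to 406 ppm in intestine and 65.0 to 76.8 ppm in bladder. Chat was among those at 0 in lung, and Chat and Vip were at 0 in bladder. In lung 2 were higher and 1 lower than in bladder, in intestine 9 were higher and 0 lower than in bladder, and in lung 0 were higher and 8 lower than in intestine. Of all genes, 19.2%, 28.7% and 15.9% were higher and 21.8%, 23.3% and 23.6% lower in these pairs. The part of neuronal RNA in the SOXB values was not tested. Sox30, a factor of sperm development, had values of 11 and 13 in lung, 27, 27 and 20 in intestine, and 10, 9 and 14 in bladder. Intestine was highest (1.11 ± 0.36 for intestine minus bladder (adjusted p = 0.0291)), a call lost without intestine library 1 (1.04) or 2 (1.04) or bladder library 1 (1.05) or 2 (0.99), with the replicate block and with quantile normalization.

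Besides Foxp3, 4 members did not pass the filter. Foxd1, which marks kidney stroma and pericyte precursors, had values of 8 and 31 in lung, 0, 3 and 1 in intestine, and 6, 4 and 4 in bladder, with lung library 2 the highest. Foxh1, a SMAD partner in nodal signalling, had 2 and 7 in lung, 0, 0 and 0 in intestine, and 0, 0 and 1 in bladder. It was at least 1.64-fold higher in lung than in intestine, against a floor of 3 reads per library, and with 1 read in bladder the ratio of reads for lung over bladder was 10.5 (exact 95% interval 1.50 to 457). Foxn4, a factor of retinal progenitors, had 0 and 0 in lung, 3, 0 and 8 in intestine, and 0, 0 and 1 in bladder, and was at least 1.45-fold lower in lung than in intestine by the same floor. With 1 read in bladder, its ratio of reads for intestine over bladder was 8.38 (exact 95% interval 1.22 to 361). The neural factor Sox1 had 0 and 0 in lung, 0, 9 and 5 in intestine, and 1, 1 and 0 in bladder, and was at least 1.84-fold lower in lung than in intestine. With 2 reads in bladder, its ratio of reads for intestine over bladder was 5.71 (exact 95% interval 1.33 to 51.5). These intervals pool the libraries of an organ and do not cover the spread between them. With no filter on low values, limma called 13 members higher in lung than in intestine, against 11 with it, and 19 higher in intestine than in bladder, against 18. Over all genes, 2954 of 21649 were called in the first case, against 2882 of 18097 with the filter. In the second, 5503 were called, against 5185.

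Of the 69 calls of members over the 3 pairs of organs, 44 held in every alternative that could be run for the gene, up to 18, and 25 were lost in at least 1. Between lung and bladder the calls that held were those of Foxa1, Foxa2, Foxc1, Foxc2, Foxm1, Foxp1, Foxp2, Foxq1, Foxs1, Sox5, Sox6, Sox7, Sox12, Sox15, Sox17 and Sox18. Between intestine and bladder they were those of Foxa1, Foxa2, Foxa3, Foxc1, Foxp1, Foxp2, Foxs1, Sox6, Sox7, Sox8, Sox9, Sox13, Sox15, Sox17 and Sox18. Between lung and intestine they were those of Foxa1, Foxa3, Foxc2, Foxd2, Foxm1, Foxp1, Foxq1, Sox5, Sox9, Sox11, Sox12, Sox13 and Sox17. Foxa1, Foxp1 and Sox17 are on all 3 of these lists. Some pairs not called in the main fit were called in at least 1 alternative. Among these were pairs of Foxd2, Foxj2, Foxj3, Foxk2, Foxo4, Foxo6, Sox4, Sox7, Sox11 and Sox12.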

How the data were processed

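Per the labels' protocols, RNA of sorted cells was extracted with a miRNeasy micro kit, treated with DNase, and given in amounts of up to 10 ng to the SMART-Seq v4 kit, which amplifies full-length cDNA and does not mark strand. The genome build was mm39, per the submitters' processing notes, which list DESeq2 1.36.0, featureCounts 2.0.4, STAR 2.7.10a, Picard 3.0.0 and Trimmomatic 0.39 without saying which step each served. The authors deposited 1 table of whole numbers that look like read counts times 1 constant for each library, rounded, and it was treated as a score. Not given in the sources used here are the normalization step, annotation release, strand setting and filters, and the lowest row maximum in the table is 6.

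The main test was limma 3.58.1 (R 4.3.3) with an intensity trend on log2(value + 1), which understates differences of low genes. All 8 libraries entered 1 fit with a mean per organ, on genes that reached 10 in 2 or more libraries (18097 tested, 3552 not), with Benjamini-Hochberg adjustment over all of them and a call at an adjusted p under 0.05. A gene was enriched in an organ when higher there than in both others, with the larger p adjusted. The script was tested on simulated data first. The value of 1 read, 0.822 to 1.27 by library, was estimated from the spacing of the values and used for depth, read ratios (exact 95% intervals) and the floor of 3 reads. Exon lengths for values per kb came from GENCODE M21, matched for 96.8% of genes and all 42 members. Gene coordinates are those of the deposited table (mm39), and promoter windows are RefSeq's on GRCm38.p6. Other tools were Python 3.11.15, pandas 2.3.3, SciPy 1.17.1 and matplotlib 3.10.9.

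Members and lists were chosen with earlier results of these data known. Values in every library were given for tested members with a mean of at least 100 in an organ or a called log2 difference of at least 1 in size, which took 35 members, and for others named after their values were seen. Up to 4 genes per pathway list were named by the smallest F test p. Some listed genes are not reported here by name. Alternatives changed the pseudocount, the filter, the scaling, the libraries fitted, the variance model and the replicate block.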

Additional observations from a re-analysis of the deposited data

How the results depend on the processing

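Each result was recomputed with other pseudocounts, filters, scalings, libraries, a robust variance model, only the 2 organs compared, and the replicate number as a block. With the deposited scaling undone, 7959 genes were higher and 1897 lower in lung than in bladder, 8317 and 1930 in intestine than in bladder, 2042 were enriched in lung and 788 in bladder. Of members, 3 were then lower in intestine than in bladder and 8 enriched in lung. The same scaling turned the lung minus bladder difference of Foxn3 to 0.44, of Foxo1 to 0.31 and of Foxj2 to 0.46, and the intestine minus bladder difference of Foxn3 to 0.0425. By construction it restores the depth difference between organs. With quantile normalization 4822 genes were higher in lung than in intestine, and Foxn3 turned to 0.20 for lung minus bladder. With a filter at 50 in 2 libraries 1 member was enriched in bladder, since Sox15 was no longer tested. The causes of the other changes were not tested. Leaving out 1 library at a time gave 12 to 19 members higher and 5 to 6 lower in lung than in bladder, 14 to 19 and 5 to 7 in intestine than in bladder, and 8 to 10 and 7 to 11 in lung than in intestine. Enriched members numbered 3 to 7 in lung, 5 to 8 in intestine and 2 in bladder, and 26 to 29 passed the F test. Foxp4 turned to -0.44 for lung minus intestine without lung replicate 2. Over all genes the calls were 2667 to 3415 higher and 3354 to 4269 lower in lung than in bladder, 4421 to 5632 and 3532 to 4669 in intestine than in bladder, 2043 to 3125 and 3428 to 4696 in lung than in intestine, 534 to 1099 enriched in lung, 1954 to 2672 in intestine and 1689 to 2281 in bladder, and 9991 to 12224 by the F test. Fits without a lung library leave 1, which is assumed to vary like the other organs. Libraries with the same number did not deviate together across genes (correlations of -0.0264 to 0.0581). This cannot show whether they came from the same mouse. With 2 lung libraries, the deviations of 1 mirror those of the other. With the replicate block, 16 members were higher and 5 lower in lung than in bladder, 17 and 6 in intestine than in bladder, and 10 and 10 in lung than in intestine. Of 2268 counts over the gene lists, 2071 stayed within 1.5 times, and 30 of 126 moved with the deposited scaling undone, 21 with quantile normalization, 10 with equal totals and 6 with the block. Genes under about 3 reads per library cannot be ranked at this depth.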
